A study of Homo sapiens with 4 samples.

Results

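Hub anchors were the 5 kb bins of chromosomes 1 to 22 that were joined to at least 10 distinct other bins in the loop list labelled CTCF. This rule selected 2293 of the 60281 anchor bins in that list, or 3.80%, covering 11.5 Mb and 0.399% of the autosomes. The hubs were chosen by their partner number in this list, so that number, the summed read pairs and the other measures of the same loops are given as descriptions and not as findings. The data come from HiChIP, in which chromatin is cross-linked, cut and re-ligated and the junctions bound by one protein are pulled down and sequenced. The cells were HG00731, a lymphoblastoid line, that is, B cells made to grow in culture with Epstein-Barr virus, from the 1000 Genomes collection. One pair of libraries was made with an antibody to CTCF after formaldehyde (FA) cross-linking, and another pair with an antibody to the cohesin subunit SMC1 after formaldehyde and EGS, a second and longer cross-linker (FA-EGS). Each target had 2 biological replicates of this single untreated line, which the authors pooled before calling peaks and loops, so no value below has a spread between replicates and no test between conditions was possible. Target and cross-linking differ together between the libraries and cannot be told apart.

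CTCF is a zinc finger protein that binds an asymmetric DNA motif. Cohesin, a ring complex that contains SMC1, is thought to extrude chromatin loops until it meets CTCF, and it is stopped chiefly where the motif points into the growing loop. An anchor that holds cohesin while the other end of the loop keeps moving contacts a whole row of sequences on one side, which appears in contact maps as a stripe. Anchors of this kind often lie at the borders of contact domains, and some lie at promoters.

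The list labelled CTCF held 79406 loops with 2635261 read pairs on chromosomes 1 to 22, and the list labelled SMC1 held 27785 loops with 783375 read pairs. The peak lists held 61417 CTCF peaks and 94628 SMC1 peaks on these chromosomes. MAPS, the loop caller, keeps a pair of bins only if a peak of its own sample lies at 1 of the anchors or at both. In the list labelled CTCF, 0 loops lacked an SMC1 peak at both anchors, whereas 3654 loops lacked a CTCF peak at both. In the list labelled SMC1, 0 loops lacked a CTCF peak at both anchors and 11 lacked an SMC1 peak. Each list therefore met the peak condition in full for the target of the other label. The totals of the lists, 80487 loops for the one labelled CTCF and 28012 for the one labelled SMC1 over all chromosomes, are also exchanged between the targets in the supplement of the study. By both checks the loop list labelled CTCF matches the SMC1 libraries and the list labelled SMC1 matches the CTCF libraries. The lists are still called by their labels below, and no direction is drawn from the labels.

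Sequences around the CTCF motif are shown first for 6 of the 10 hubs with the most partners, since the strand of the motif is read against the side of the partners. Each line gives 39 bases of the hg38 reference, read 5′ to 3′ on the strand of the motif, with the 19 bases of the motif in capitals. A forward motif lies on the plus strand and points to higher coordinates (to the right), and a reverse motif points to the left.
METTL8 intron, chr2:171416241-171416279, reverse, 44 partners left and 0 right: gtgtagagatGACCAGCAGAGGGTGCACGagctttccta
FES intron, chr15:90886172-90886210, reverse, 38 left and 0 right: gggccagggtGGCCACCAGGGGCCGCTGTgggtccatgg
intergenic, nearest coding gene MED13, chr17:62109598-62109636, reverse, 37 left and 0 right: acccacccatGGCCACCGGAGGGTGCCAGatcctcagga
intergenic, nearest coding gene CMIP, chr16:81403691-81403729, forward, 0 left and 36 right: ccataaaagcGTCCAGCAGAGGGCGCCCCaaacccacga
ADK intron, chr10:74266181-74266219, forward, 0 left and 38 right: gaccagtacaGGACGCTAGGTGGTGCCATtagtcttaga
intergenic, in the bin of the ABTB2 start, chr11:34358863-34358901, forward, 33 left and 1 right: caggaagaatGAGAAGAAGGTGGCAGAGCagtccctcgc
In the first 5 of these hubs the motif pointed towards the side that held most of the partners. In the ABTB2 hub it pointed away from that side. The matches (scored in bits, as described below) of METTL8, FES and CMIP lay within 50 bp of the CTCF summit, with 14.3, 16.8 and 16.4 bits. Those of MED13, ADK and ABTB2, with 14.5, 11.3 and 11.4 bits, were found only in a window of 200 bp that was chosen after seeing the data. In these bins no match of the 10 bits required lay wholly within 50 bp of the summit. The MED13 match was centred 47 bp from the summit and reached past that window. Within 50 bp the best match of ABTB2, with 7.32 bits, was reverse and pointed to its partners.

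Among the hubs, 1570 had 10 to 14 partners, 487 had 15 to 19, 205 had 20 to 29 and 31 had 30 or more, with a median of 12 (quartiles 11 and 15) and a maximum of 57. The partners of a hub were often neighbours of each other. When touching partner bins were joined, a hub had a median of 6 groups of partners, 194 hubs kept 10 or more groups, and in 4 hubs all partners formed 1 unbroken group. The hubs themselves were mostly isolated, forming 2105 runs of touching bins, of which 1931 were single bins and the longest had 4. The strongest loop of a hub held a median of 22.8% of its read pairs (quartiles 17.7 and 29.6). The farthest partner lay at a median of 300 kb (quartiles 205 and 455) and the nearest at 65 kb. The summed read pairs of a hub had a median of 487 and reached 2487.

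The rule cut through a continuous distribution. At the threshold, 478 bins had exactly 10 partners and 629 bins just outside had 9. The bins with 10 partners held a coding transcription start in 18.4% of cases, and those with 9 in 24.5%. Peaks of both targets were in 95.2% of the bins with 10 partners and in 94.8% of those with 9. Their median partner number in the list labelled SMC1 was 3 on both sides of the threshold, and their median summed read pairs were 350 and 328. Of the bins with 10 partners, the one with most read pairs lay in an intron of NR4A1, a nuclear receptor gene, at chr12:52025001-52030000, with 0 partners left, 10 right and 1926 read pairs. Of the bins with 9, it lay in an intron of RAPGEF3, a gene for an exchange factor activated by cyclic AMP, at chr12:47740001-47745000, with 4 left, 5 right and 1344 read pairs.

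The hub with the most partners was chr19:15555001-15560000, an intergenic bin 29668 bp from the nearest coding start, that of CYP4F22, a cytochrome P450 gene of skin lipid synthesis. All 57 partners lay on its left, between 80 and 685 kb away, and none on its right. Its 57 loops held 2332 read pairs, from 12 to 177 each, and the strongest reached a bin 140 kb away. The partner bins held the starts of 9 coding genes, including NOTCH3, a Notch receptor, AKAP8 and AKAP8L, nuclear anchoring proteins, and WIZ, a zinc finger protein. The bin held 1 CTCF peak, with a −log10 q-value of 373 and a fold enrichment of 10.1, and 1 SMC1 peak, with 462 and 7.99. In the list labelled SMC1 the same bin had 71 partners, again all on the left, and 53 of them were shared between the lists. This was also the highest partner number in that list and the highest of any hub without an annotated gene. Its best motif match within 200 bp of the CTCF summit was forward and scored 8.99 bits, under the minimum of 10 used below, and thus pointed away from the partners.

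The other 9 of the 10 hubs with the most partners lay on other chromosomes. Those of METTL8, an RNA methyltransferase gene, FES, a tyrosine kinase gene of blood cells, and the bin near MED13, a Mediator subunit gene, had partners on the left only, with 44, 38 and 37. Those of ADK, the adenosine kinase gene, and the bins near CMIP and GTSF1L had partners on the right only, with 38, 36 and 34. The hub of DGKG, a diacylglycerol kinase gene, had 31 left and 4 right, and that of ABTB2 had 33 left and 1 right. The hub at an annotated start of ARHGAP22 other than its coding starts was the least one-sided of the 10, with 7 left and 31 right. FES and ABTB2 were the only hubs of the 10 with a coding transcription start in the bin. The ADK hub, at chr10:74265001-74270000, reached farthest, since its nearest partner lay 310 kb away and its farthest 970 kb, beyond KAT6B, an acetyltransferase gene, whose start was in a partner bin.

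**Figure D1:**
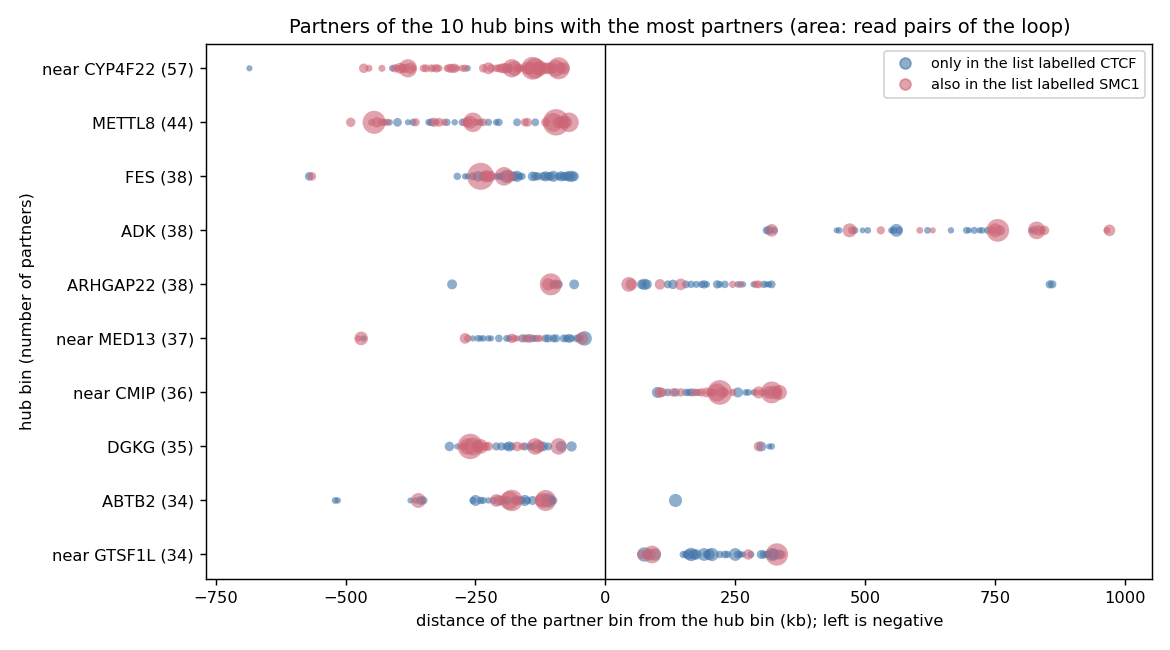
Partners of the 10 hubs with the most partners, by distance from the hub in kb, with points to the left of 0 for partners at lower coordinates. Point area is the number of read pairs of the loop, and colour shows whether the list labelled SMC1 joins the same pair. 7 of the 10 rows lie wholly on one side, and the row of ARHGAP22 has 7 partners left and 31 right.

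The partners of most hubs were on one side. A hub was called left-sided or right-sided if at least 80% of its partners lay on that side, and mixed otherwise. Of the 2293 hubs, 1033 were left-sided (45.1%), 1006 were right-sided (43.9%) and 254 were mixed (11.1%), so that 88.9% were one-sided (95% Wilson interval 87.6 to 90.1). In 761 hubs no partner lay on the left and in 788 none on the right, and 19 hubs had equal numbers on both sides. Among bins with 5 to 9 partners 83.7% were one-sided, but the share depends on how a small number divides: 1 partner on the minor side leaves a bin with 5 partners one-sided and 2 leave a bin with 9 mixed. At the threshold this gave 78.5% one-sided at 9 partners and 89.5% at 10. Left-sided and right-sided hubs had close values of partner number (medians of 13 and 12), of the distance of the farthest partner (315 and 290 kb) and of the share with a coding start (20.4% and 20.6%).

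Mixed hubs differed from one-sided hubs in what the bin held. Of the mixed hubs, 35.0% had at least 2 CTCF peaks, against 19.3% of the one-sided hubs, a difference of 15.7 percentage points (95% Newcombe interval 9.84 to 21.99). At least 2 SMC1 peaks were in 42.9% and 26.1%. A coding start was in 28.0% of mixed and 20.5% of one-sided hubs, a difference of 7.45 points (1.99 to 13.5). Motif matches on both strands were found at CTCF summits of 9 of the 254 mixed hubs (3.54%), of 8 of the 1033 left-sided hubs (0.774%) and of 7 of the 1006 right-sided hubs (0.696%). Only the best match of each summit was kept, so a bin with 1 CTCF summit could not show both strands. The part of peak number in these shares was not tested. All intervals cover counting error only, and neighbouring bins share reads and are not independent.

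The strand of the CTCF motif mostly followed the side of the partners. A motif matrix of 19 bases was learned from the 3000 CTCF summits of highest −log10 q-value, and its consensus was ggccagcagggggcgctgg. A match of at least 10 bits, a score of up to 20.2 that grows with likeness to the matrix, lay within 50 bp of the strongest CTCF summit in 818 hubs (35.7%) and in 23.7% of the bins with 5 to 9 partners. Of the 813 such hubs with unequal sides, the motif pointed to the side with more partners in 729, or 89.7% (87.4 to 91.6). This held for 352 of 403 forward motifs (87.3%) and for 377 of 410 reverse motifs (92.0%). The share was 82.7% among bins with 5 to 9 partners, 77.2% with 2 to 4 and 68.1% with 1. Among mixed hubs it was 71 of 87 (81.6%). With a window of 200 bp around the summit, chosen after seeing the data, the share was 89.9% of hubs. The learned matrix held 7.95 bits of information in all, and a hub without a match may hold a site that these letters or this window miss.

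**Figure D2:**
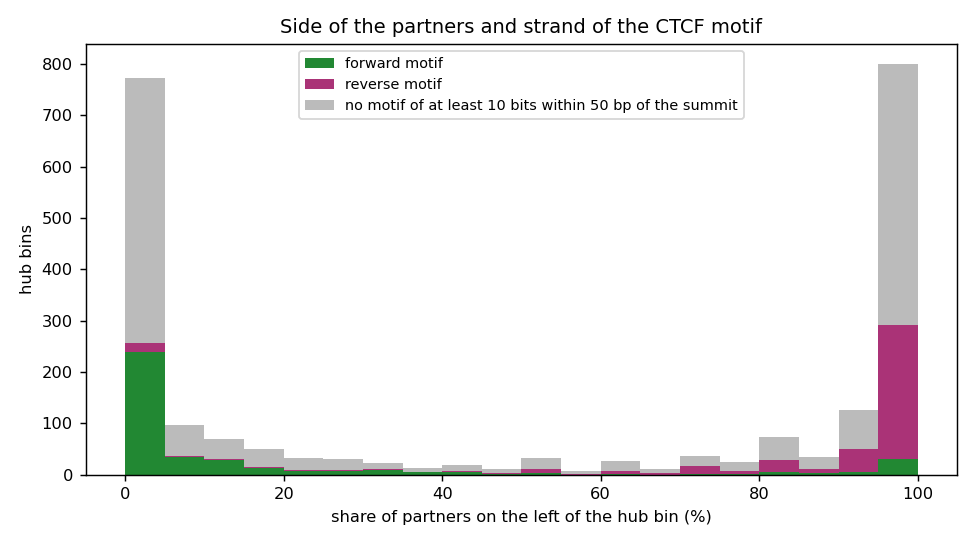
Number of hubs by the share of their partners that lie on the left, in steps of 5%, coloured by the strand of the best CTCF motif match at the strongest summit. The outermost columns hold most hubs, most forward motifs are at the right-sided end (low share on the left) and most reverse motifs at the left-sided end.

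Hubs were joined to each other in 1093 loops, or 1.38% of all loops. These loops had medians of 67 read pairs, of 5.73 for the ratio of each loop to the number expected by MAPS, and of 225 kb for the span. Loops with 1 hub anchor (29666) had medians of 25 read pairs, 4.05 times the expected number and 155 kb, and loops without a hub (48647) had 22, 3.99 and 105 kb. In 586 of the loops between hubs (53.6%) a right-sided hub on the left was joined to a left-sided hub on the right, so that their rows of partners faced each other, and 0 loops joined a left-sided hub on the left to a right-sided hub on the right. The loop itself counts towards the side of both hubs, which favours the first arrangement and works against the second. Where both hubs had a motif match, the motifs pointed towards each other in 95 of 143 loops (66.4%; 58.4 to 73.7) and away from each other in 4 (2.80%). In loops without a hub these arrangements made up 54.8% and 6.47% of 1252 loops. A hub was joined to a median of 1 other hub and at most 6, and 975 hubs were joined to none. Together the loops with at least 1 hub anchor made up 38.7% of the list and 44.9% of its read pairs.

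Nearly all hubs held peaks of both targets. A CTCF peak and an SMC1 peak overlapped 2221 hubs (96.9%; 96.1 to 97.5), an SMC1 peak alone was in 72 (3.14%), and no hub had a CTCF peak alone or no peak, where a count of 0 allows a share of up to 0.131%. Among bins with 5 to 9 partners both peaks were in 88.1%, an SMC1 peak alone in 10.1% and no peak in 1.55%. The share with both peaks was 60.2% with 2 to 4 partners and 30.8% with 1. Of all 5 kb bins on these chromosomes, 10.4% held a CTCF peak and 15.7% an SMC1 peak. Peaks are a condition of loop calling, so a high share at hubs is partly set by the caller. The medians of peak strength cover only bins that held a peak of the target, for CTCF 2221 hubs and 10315 of the 30366 bins with 1 partner. The strongest CTCF peak of a hub had a median −log10 q-value of 176, against 113 at 5 to 9 partners, 57.7 at 2 to 4 and 27.0 at 1. For SMC1 the medians were 160, 93.7, 43.2 and 21.1. The fold enrichments differed less, with medians at hubs of 10.2 for CTCF and 6.33 for SMC1, against 9.10 and 5.68 at 5 to 9 partners. Hub sequence had a median GC content of 46.9%, against 46.1% at 5 to 9 partners and 43.6% at 1, and the part of base composition and read depth in these differences was not tested.

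The 72 hubs with an SMC1 peak alone had weaker SMC1 peaks at the median. Their strongest SMC1 peak had a median −log10 q-value of 44.3, against 163 in the hubs with both peaks. The class depended on the bin edges. With bins widened by 5 kb on each side, 2281 of the 2293 hubs held peaks of both targets. Most of the 72 thus had a CTCF peak within 5 kb. Some touched a hub with both peaks and had the same value for the strongest SMC1 peak. The 72 hubs had a median of 1 partner in the list labelled SMC1, against 5, and none had 10 or more there, where 24.4% of the hubs with both peaks did. That list meets its peak condition with CTCF peaks throughout, so a bin without one could join it only through its partner. The share with a coding start was 18 of 72, against 21.2% of the hubs with both peaks, and 90.3% were one-sided. The one with the most partners lay at the start of IRF2BP2, a gene for a transcriptional co-repressor, at chr1:234610001-234615000. It had 28 partners, all on the right and up to 475 kb away, of which 4 were hubs, and 27 of the 28 partner bins held an SMC1 peak. The bin held 2 SMC1 peaks, the stronger with a −log10 q-value of 42.0, and it had 1 partner in the list labelled SMC1.

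**Figure D3:**
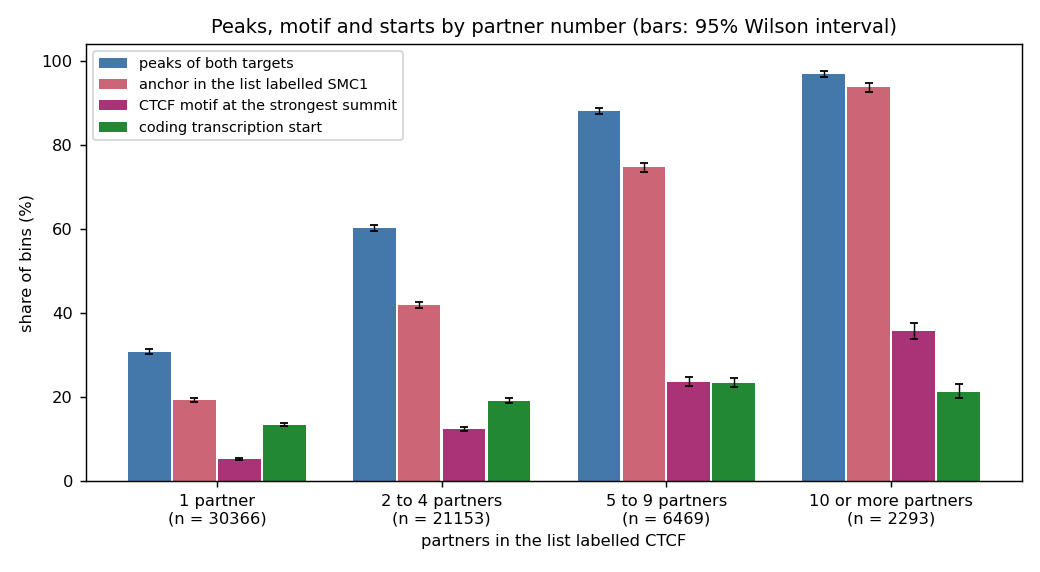
Share of bins (in %) with peaks of both targets, with an anchor in the list labelled SMC1, with a CTCF motif at the strongest summit and with a coding transcription start, by partner number in the list labelled CTCF. Bars show 95% Wilson intervals. The first 3 shares are highest at 10 or more partners (96.9%, 93.8% and 35.7%), whereas the share with a coding start is 21.3% there and 23.5% at 5 to 9 partners.

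The bins that hubs were joined to were poorer in peaks than other anchors. Hubs had 26037 distinct partner bins, of which 1318 were hubs (5.06%). Of the 24719 partner bins that were not hubs, 41.0% held peaks of both targets, 22.9% an SMC1 peak alone and 33.5% no peak. Of the 33269 other anchors with fewer than 10 partners, the shares were 53.1%, 20.6% and 24.3%. A coding start was in 15.1% of the partner bins and in 17.9% of the others. Since the hub already meets the peak condition, its partner need not hold a peak.

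The share of hubs with a coding start was close to that of anchors with 5 to 9 partners and above that of anchors with fewer. A transcription start of a protein-coding gene lay in 489 hubs (21.3%; 19.7 to 23.05), against 23.5% of the bins with 5 to 9 partners, 19.2% with 2 to 4, 13.5% with 1 and 5.33% of all 5 kb bins. The difference between hubs and the bins with 5 to 9 partners was -2.12 percentage points (-4.06 to -0.123). For starts of all annotated genes the shares were 36.9% and 38.3%, a difference of -1.38 points (-3.67 to 0.935), and for coding starts within 1 kb of the bin 26.2% and 27.3%, a difference of -1.18 points (-3.25 to 0.949). Among hubs with at least 20 partners the coding share was 24.2%, so that the sign of this small difference depended on the partner minimum. The body of a coding gene overlapped 1379 hubs (60.1%), of which 890 had no coding start, and 602 hubs (26.3%) overlapped no annotated gene. Starts of at least 2 coding genes were in 37 hubs and of at most 3. Hubs with a coding start reached less far than the others, with the farthest partner at a median of 260 kb (240 to 275) against 315 kb (300 to 325).

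Apart from FES and ABTB2, the hubs with a coding start and the most partners, named after their values were seen, included those of HOXB3 and HOXB5, homeobox genes (33 partners, 0 right), RAI1, a chromatin regulator gene (31, 0 left), SIK2, a kinase gene (30, 0 left), STAG1, a cohesin subunit gene (25 left and 5 right), MARCKS, an actin-binding protein gene (27, 0 right), and ATXN1, the ataxin-1 gene (27, 0 right). Their partner numbers in the list labelled SMC1 were 25 for the HOXB bin, 40 for RAI1, 26 for SIK2, 20 for STAG1, 45 for MARCKS and 16 for ATXN1. The hub at the start of CYB5B, a mitochondrial cytochrome b5 gene, also had 27 partners, all on the right, but 1 in the list labelled SMC1.

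Of the 18765 protein-coding genes on chromosomes 1 to 22, 513 had a transcription start in a hub, or 2.73%, and 46.5% had a start in any anchor bin. The counts below are read against these shares, and a gene with many annotated starts or a dense neighbourhood has more chances to be counted. The lists were chosen with earlier results of these data known, and no set test was made. Of 22 transcription factors of B cells, 2 had a start in a hub and 20 in any anchor. IKZF3, the Aiolos gene, lay in chr17:39860001-39865000 with 20 partners, all on the left, 1637 read pairs and 22 partners in the list labelled SMC1. POU2F2, the Oct-2 gene, had 2 left and 11 right. Of 25 B cell receptor and surface genes, 1 was in a hub, PIK3CD, the kinase subunit p110 delta, with 14 partners on the right.

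Of 22 genes for NF-kappaB subunits and targets, the pathway that Epstein-Barr virus keeps active in such lines, 3 were in hubs (13.6%), and 2 of these were mixed. TNFAIP3, an inhibitor of NF-kappaB, had 5 partners left and 7 right, with 1171 read pairs and 11 partners in the list labelled SMC1. MYC, the growth-promoting transcription factor, had 5 left and 8 right, reaching 585 kb. ICAM1, an adhesion molecule, had 0 left and 10 right. Of 18 genes of the BCL2 family and the G1 phase of the cell cycle, 3 were in hubs (16.7%) and all 18 in anchors. BCL2, which blocks apoptosis, had 13 partners on the left and 21 in the list labelled SMC1. CDK6, a G1 kinase, had 13 left and 2 right. BCL2L11, the pro-apoptotic BIM, had 9 left and 3 right, reaching 590 kb, and 1 partner in the list labelled SMC1. These lists hold few genes, and 1 gene more or less moves each share by more than the share of all coding genes.

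Genes outside the B cell lineage gave hubs too. Of 23 T cell genes, 0 were in hubs and 12 in anchors, and a count of 0 of 23 allows a share of up to 13.04%. Of 24 transcription factors of non-blood lineages, 6 were in anchors and 2 of these in hubs. SOX9, a factor of cartilage and testis, had 1 partner left and 13 right with 294 read pairs, an SMC1 peak of −log10 q-value 15.5, no CTCF peak and 0 partners in the list labelled SMC1. NEUROG2, a neuronal factor, had 10 partners on the left with 281 read pairs and 1 in the list labelled SMC1. Both had fewer read pairs than the median of 487. So did MYC with 409, BCL2L11 with 370, PDS5A with 363, ZNF491 with 414, ZNF703 with 290 and ZNF778 with 259 among the genes of the other lists.

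Large gene families were counted in the same way. Of 496 zinc finger genes named ZNF with a number, 6 were in hubs (1.21%) and 40.1% in anchors. ZNF217 had 16 partners, all on the right, ZNF20 had 18 left and 1 right, and ZNF219 had 10, all on the left. None of 73 histone genes, 389 olfactory receptor genes or 149 keratin and keratin-associated genes was in a hub, with 35.6%, 5.14% and 2.01% in anchors. The counts of 0 allow shares of up to 4.11%, 0.771% and 2.01%, so that the histone genes cannot be told apart from all coding genes at this number. Only 20 of the 389 olfactory receptor genes and 3 of the 149 keratin and keratin-associated genes had a start in any anchor. Few of them could thus be in a hub, and no conclusion about hubs is drawn from their counts of 0. Of 53 clustered protocadherin genes, whose choice of promoter uses CTCF and cohesin, 1 was in a hub, PCDHGC3 (1.89%; 0.334 to 9.94). Of 17 genes for CTCF and cohesin factors, 2 were, STAG1 and PDS5A, a regulator of cohesin release, which had 16 partners on the left. The motif within 200 bp of the summit did not always point to the partners of these genes. It did at PIK3CD (16.8 bits), CDK6 (12.7), BCL2L11 (11.9), STAG1, PDS5A, ZNF20, ZNF217, ZNF491, ZNF703 and ZNF778. It pointed away from the side with more partners at ZNF219, with 15.5 bits, at TNFAIP3, with 17.2, and at CIITA, a hub described next, with 12.5. At MYC the match, with 10.8 bits, also pointed away, whereas the best match within 50 bp, with 10.6 bits, pointed to the side with more partners.

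Of 19 antigen presentation genes only CIITA, the master regulator of HLA class II genes, was in a hub or in any anchor, with 12 partners left and 2 right and 818 read pairs. The HLA genes among the others lie in a stretch of chromosome 6 where the lists used here were nearly empty. From 29 to 33 Mb there were 0 anchor bins, 1 CTCF peak and 1 SMC1 peak, whereas the rest of the chromosome had 20.8 anchor bins, 20.4 CTCF peaks and 34.7 SMC1 peaks per Mb. No statement about hubs at HLA genes can be drawn from these lists, and the cause was not tested.

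**Figure D4:**
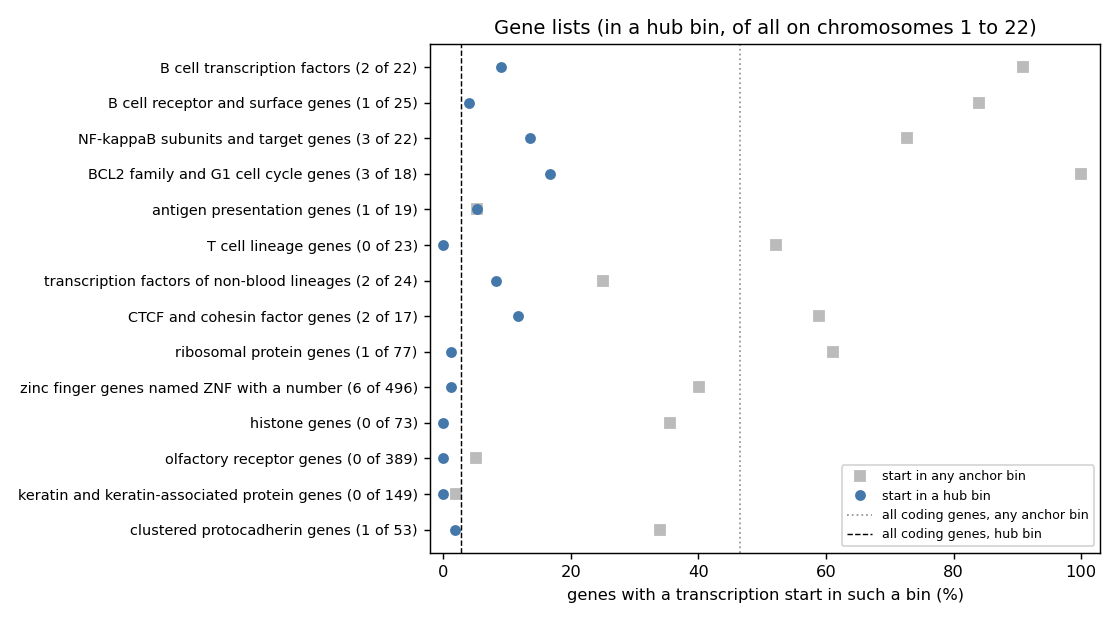
Share of the genes of each list with a transcription start in a hub (circles) and in any anchor bin (squares), in %, with the shares of all coding genes as lines at 2.73% and 46.5%. Counts beside each name give genes in a hub of genes on chromosomes 1 to 22. Both shares lie above those of all coding genes for the lists of B cell, NF-kappaB and BCL2 genes and of CTCF and cohesin factors. Both lie below for the zinc finger, histone, olfactory receptor, keratin and clustered protocadherin genes. The other lists are split, with the transcription factors of non-blood lineages above in hubs (8.33%) and below in anchors (25%). The hub shares above 2.73% rest on 1 to 3 genes per list, and no set test was made. The Wilson intervals of the B cell lists, 2.53 to 27.8% for transcription factors and 0.71 to 19.5% for surface genes, include 2.73%. That of the non-blood transcription factors, 2.32 to 25.8%, includes it too. Those of the NF-kappaB, BCL2 and CTCF and cohesin lists start above it, at 4.75, 5.84 and 3.29%.

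Hubs were unevenly spread over the chromosomes. Chromosome 1 held the most, 293, but per 10 Mb chromosome 19 was highest with 24.4 (143 hubs), followed by chromosome 17 with 19.6 (163). Chromosome 13 was lowest with 2.36 per 10 Mb (27 hubs), and chromosome 21 had 2.997 (14). Relative to coding genes the spread was smaller, from 6.39 hubs per 100 genes on chromosome 21 to 17.2 on chromosome 18, and chromosome 19 had 9.99. As a share of the anchor bins, hubs were again highest on chromosomes 19 (5.24%) and 17 (5.00%). The share was lowest on chromosome 13 (2.25%), against 3.80% over all chromosomes.

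Most hubs were anchors again in the list labelled SMC1. Of the 2293 hubs, 2150 (93.8%; 92.7 to 94.7) had at least 1 partner there, against 74.7% of the bins with 5 to 9 partners. Their median partner number there was 5 (quartiles 2 and 9), against 2 at 5 to 9 partners. At least 10 partners there were found for 543 hubs (23.7%), 5 to 9 for 707, 1 to 4 for 900 and 0 for 143 (6.24%). The share with at least 10 there was 2.15% among bins with 5 to 9 partners and 1.16% among all anchors. The list labelled SMC1 has 698 bins with at least 10 partners, and 77.8% of them were hubs. Of the 155 others, 139 had 5 to 9 partners in the list labelled CTCF, and 0 of the 698 were absent from that list. The partner numbers in the lists were related, with a Spearman correlation of 0.373 over 2293 hubs and 0.492 over all 60281 anchors, given as a description since the bins of a list share libraries and depth. The median in the list labelled SMC1 was 4 for hubs with 10 to 14 partners, 7 for 15 to 19, 12 for 20 to 29 and 18 for 30 or more (95% interval 9 to 25, n = 31).

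The side of the partners was mostly the same in both lists. Among one-sided hubs with at least 5 partners in the list labelled SMC1, 1045 of 1095 (95.4%; 94.0 to 96.5) were one-sided to the same side there, 50 were mixed and 0 turned to the other side. The individual pairs were less often shared. Of the 31852 pairs of a hub and a partner, 12037 (37.8%; 37.3 to 38.3) were also joined in the list labelled SMC1. The same pair was in both lists for 70.2% of the loops between hubs, for 35.4% of the loops with 1 hub and for 16.3% of the loops without a hub. The list labelled CTCF has more loops and more read pairs. The supplement of the study also gives more reads for the SMC1 libraries, which this list matches, than for the CTCF libraries. The part of depth in these shares was not tested.

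Hubs with more partners in the list labelled SMC1 than in the list labelled CTCF numbered 217 (9.46%), and 42 had equal numbers. These 217 hubs had a median of 19 partners there and 13 in the list labelled CTCF. All 217 held peaks of both targets, and their strongest CTCF peak had a median −log10 q-value of 275, against 176 over all hubs with one. The list labelled SMC1 meets its peak condition with CTCF peaks throughout and matches the CTCF libraries by the checks above. The CTCF peaks of hubs with many or with 0 partners there are thus partly set by that choice. A coding start lay in 31.8% of the 217 hubs (26.0 to 38.3), against 21.3% of all hubs. The bin with 57 partners near CYP4F22 and the hubs of RAI1, MARCKS, IKZF3 and BCL2 were among them. At the other end, the 143 hubs with 0 partners in the list labelled SMC1 had a median of 294 summed read pairs. The 120 of them with a CTCF peak had a median CTCF −log10 q-value of 94.7. An SMC1 peak alone was in 16.1% of the 143 hubs, against 2.28% of the other hubs. A coding start was in 18.9% of the 143 hubs (13.3 to 26.1), and the SOX9 hub was among them.

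**Figure D5:**
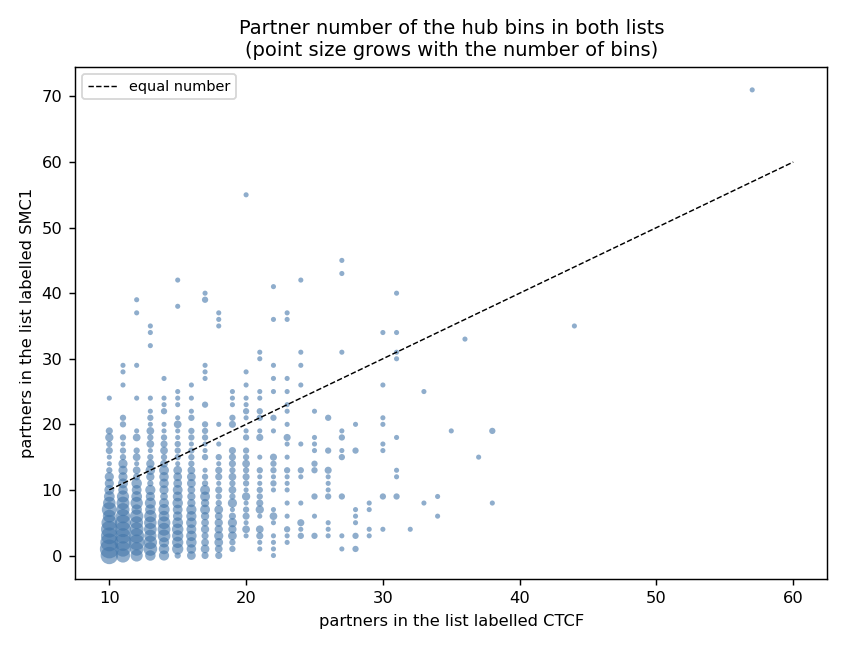
Partner number of each hub in the list labelled CTCF (horizontal) and in the list labelled SMC1 (vertical), with larger points for more hubs at the same pair of values and a dashed line at equality. Most hubs lie below the line, 217 hubs lie above it, and the bin near CYP4F22 is alone at 57 and 71.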

How the data were processed

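HiChIP was done in HG00731 cells with antibodies to CTCF (FA) and SMC1 (FA-EGS), with 2 biological replicates each. Per the methods and the labels, the authors used BWA-MEM for alignment to hg38, filtered on mapping quality, removed duplicates and pooled the replicates. MACS3 3.0.1 then gave peaks (maximum q-value 0.01) and MAPS gave loops between 5 kb bins. The deposited loop lists hold each loop's count of read pairs, the expected signal of the MAPS model and a false discovery rate (an adjusted p-value). The deposited peak lists give fold enrichment as a ratio, and the −log10 q-value. Read depth per sample is not given in these files, and intervals cover counting error only.

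A partner is a distinct bin joined to a bin by a loop on chromosomes 1 to 22. Peaks overlapped a bin by at least 1 bp. Genes came from GENCODE release 44 on hg38, the build of the files. A coding start is a start of any protein-coding transcript. The CTCF matrix was learned by expectation maximization from windows of 50 bp on either side of the 3000 strongest summits, started from the 8-base word most in excess over windows 1000 bp away, and was scored in bits against the base composition of the latter. Partner counting and the matrix were tested on simulated data. Shares have 95% Wilson intervals, differences Newcombe intervals and medians rank intervals. The largest share that a count of 0 allows was taken as 3 divided by the number of bins or genes, which is lower than the Wilson limit. No tests were made, since the lists pool replicates. Named hubs were the 10 with the most partners, at least 50 kb apart, the extremes by side, by the list labelled SMC1, by peak class and by absence of genes, the bins with most read pairs at 10 and at 9 partners, and the genes of 14 lists. The hubs and the lists were chosen with earlier results of these data known. Python 3.11.15, NumPy 2.4.6, pandas 2.3.3, SciPy 1.17.1, pysam 0.24.0 and Matplotlib 3.10.9 were used. Alternatives changed the partner minimum, the loops kept, the side and peak rules, the start definition and the motif minimum. Some items are not reported here.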

Additional observations from a re-analysis of the deposited data

How the results depend on the processing

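The number of hubs depended on the rule. It was 3696 with at least 8 partners, 723 with at least 15, 236 with at least 20, 194 with touching partner bins counted as 1 partner, 677 with only the loops at or above the median in read pairs and 698 in the list labelled SMC1. It stayed within 1.5 times with only loops of a false discovery rate of at most 0.001 (1602), loops of at least 50 kb (1992) and 1 hub per run of touching hubs (2105). The share with a coding start was 26.2% within 1 kb of the bin, 36.9% for starts of all annotated genes and 24.2% with at least 20 partners. The share with peaks of both targets was 95.6% for peaks of −log10 q-value of at least 10, 94.0% for summits inside the bin, 99.5% for bins widened by 5 kb on each side, 99.6% with at least 20 partners, 95.9% with touching partners counted as 1 and 98.0% with 1 hub per run. The one-sided share was 94.2% at a limit of 70% of the partners, 79.98% at 90%, 87.4% by read pairs and 91.5% with at least 20 partners. The share that were anchors in the list labelled SMC1 was 95.2% when a touching bin counted and 99.6% with at least 20 partners. The share of motifs that pointed to the side with more partners was 75.6% at a minimum of 7 bits, 94.5% at 13 bits and 93.5% with at least 20 partners. The share of coding genes with a start in a hub was 2.17% for canonical starts. The settings of 1 hub per run, canonical starts and the window of 200 bp were chosen after seeing the data. No paired analysis was possible because the lists pool the replicates of each target, and for the same reason no replicate could be left out. The bin size of 5 kb and the read pairs per loop, from 12 upwards, limit how finely partners can be told apart.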
